A study of Mus musculus with 11 samples.

Results

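The 46 genes described here encode proteins that copy the genome or divide the cell, 18 for DNA replication and its start and 28 for mitosis and cytokinesis. They were taken from a list of named genes that was chosen with earlier results of these data known. Each matched 1 of the 55414 gene identifiers in the deposited tables. All 46 were among the 14556 genes that passed the filter on low counts and were tested. RNA was measured by bulk RNA-seq in the apex of C57BL/6 mouse hearts. The groups were 4 libraries from hearts that were not irradiated (NR), 4 from hearts given 40 Gy focally to the apex by standard dose rate proton radiotherapy (S-PRT) and 3 from hearts given 40 Gy by FLASH proton radiotherapy (F-PRT), which delivers the dose at a far higher rate. Irradiated hearts were taken 2 weeks after a single exposure. S-PRT libraries carry the numbers 1 to 4, as NR libraries do, and F-PRT libraries 2 to 4. The labels give no age or sex, and leave unsaid whether each library is a different animal. The spread that the p-values rest on is that between libraries and may be technical.

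The cell cycle runs through waves of transcription. In late G1, E2F transcription factors turn on genes for the replicative helicase, the sliding clamp, nucleotide supply and cyclin E. In G2, Foxm1 and B-Myb turn on genes for cyclin B, Cdk1, the spindle and the kinetochore. In resting cells the DREAM complex holds both sets silent, on replication genes mainly through E2F sites and on mitotic genes mainly through an element called the cell cycle genes homology region (CHR). p53 acts on the same genes through the Cdk inhibitor p21, which keeps that complex assembled. Most cardiomyocytes of the adult mouse heart have left the cell cycle, and endothelial cells, fibroblasts and immune cells make up much of what still divides there.

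The promoters of the 2 sets differed in which of these letters they held. RefSeq promoter windows on GRCm38.p6, from 250 bases before to 50 after each annotated start, were found by symbol for 38 of the 46 genes (41 windows, some genes having more than 1 start). No window was at hand for Kif20a, Ccne2, Mcm4, Tpx2, Gins2, Ccna2, Foxm1 and Aurkb. The CHR was searched as TTTGAA or TTCGAA on both strands. It was in windows of 19 of 23 mitotic genes (82.6%) and 3 of 15 replication genes (20%), beside 16.4% of all tested genes with a window and 19.2% of all windows. An E2F site, searched as TTTCCCGC, TTTGGCGC, TTTCGCGC or TTTGCCGC on both strands, was in 7 of 15 replication genes (46.7%) and in 1 of 23 mitotic genes (4.35%), which was Cdk1. The share was 4.5% of tested genes and 2.26% of all windows. The NF-Y box, CCAAT on both strands, was in 19 of 23 mitotic (82.6%) and 10 of 15 replication genes (66.7%), against 42.5% of tested genes and 37.4% of all windows. The spellings were chosen with the gene sets known, a match is a description and not a bound site, and no match says only that these letters were not in the window.

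**Figure D1:**
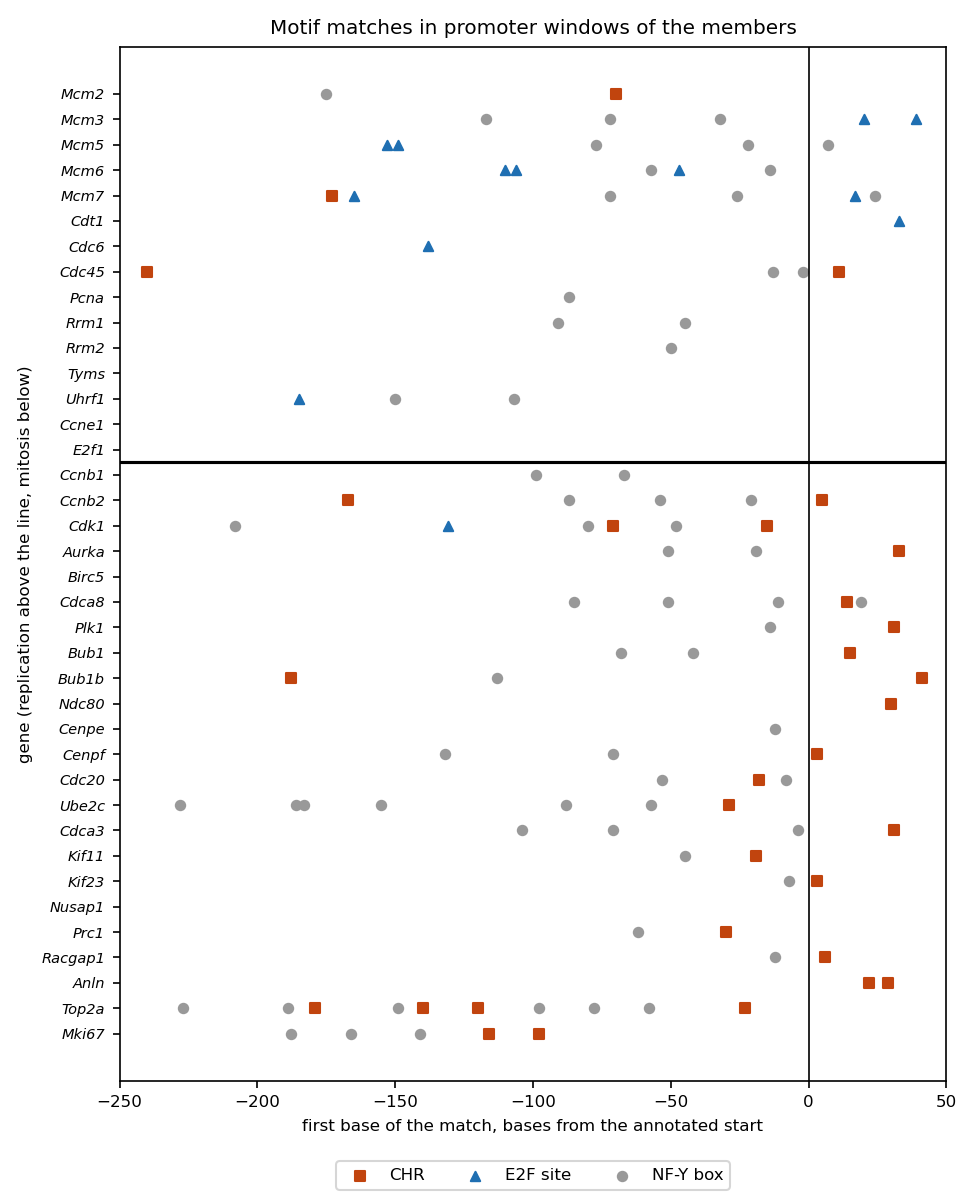
Motif matches in promoter windows of the 38 genes with a window. The x axis is the first base of each match in bases from the annotated start, genes are on the y axis with replication genes above the line, and squares, triangles and circles mark the CHR, E2F site and NF-Y box. Squares are in 19 of 23 mitotic rows and triangles in 7 of 15 replication rows.

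The 190 bases just before the start are printed for 8 genes whose levels are described in full, 5 mitotic and 3 for replication, because they show both kinds of promoter. Each reads 5′ to 3′ on the strand of the gene, and capitals mark matches to the 3 motifs on either strand, so that TTCAAA is a CHR and ATTGG an NF-Y box read on the other strand. TTCGAA reads the same on both strands. The mitotic promoters are those of Cdk1 (chr10:69352913-69353102, minus strand), Cdc20 (chr4:118437344-118437533, minus strand), Top2a (chr11:99024190-99024379, minus strand), Kif11 (chr19:37376192-37376381, plus strand) and Mki67 (chr7:135716380-135716569, minus strand).
Cdk1: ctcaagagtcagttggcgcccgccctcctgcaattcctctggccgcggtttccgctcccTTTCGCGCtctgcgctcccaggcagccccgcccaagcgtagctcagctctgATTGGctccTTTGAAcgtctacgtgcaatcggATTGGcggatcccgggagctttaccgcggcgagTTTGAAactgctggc
Cdc20: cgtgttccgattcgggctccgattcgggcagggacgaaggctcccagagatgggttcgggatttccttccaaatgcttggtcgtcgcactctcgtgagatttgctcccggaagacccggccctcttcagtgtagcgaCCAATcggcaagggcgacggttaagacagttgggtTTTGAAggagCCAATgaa
Top2a: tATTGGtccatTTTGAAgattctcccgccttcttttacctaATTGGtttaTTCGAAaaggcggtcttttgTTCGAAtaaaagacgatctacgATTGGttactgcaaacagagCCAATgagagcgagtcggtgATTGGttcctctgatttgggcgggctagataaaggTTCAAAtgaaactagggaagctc
Kif11: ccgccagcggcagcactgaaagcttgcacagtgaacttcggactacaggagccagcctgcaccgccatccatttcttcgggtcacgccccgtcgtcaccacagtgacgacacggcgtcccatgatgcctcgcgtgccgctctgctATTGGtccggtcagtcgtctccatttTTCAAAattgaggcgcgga
Mki67: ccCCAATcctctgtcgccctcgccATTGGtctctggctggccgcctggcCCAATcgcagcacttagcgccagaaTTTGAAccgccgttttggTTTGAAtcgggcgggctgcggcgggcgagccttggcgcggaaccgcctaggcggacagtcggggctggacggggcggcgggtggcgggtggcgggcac
All 5 hold a CHR and an NF-Y box, and Top2a holds 4 CHR and 5 NF-Y matches. Cdk1 also holds an E2F site further from the start than both of its CHR matches.

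The replication promoters are those of Mcm5 (chr8:75109319-75109508, plus strand), Uhrf1 (chr17:56304123-56304312, plus strand) and Pcna (chr2:132253181-132253370, minus strand).
Mcm5: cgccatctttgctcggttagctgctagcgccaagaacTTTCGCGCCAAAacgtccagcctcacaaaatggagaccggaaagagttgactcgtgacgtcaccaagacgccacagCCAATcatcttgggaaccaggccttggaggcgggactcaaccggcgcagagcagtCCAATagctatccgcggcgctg
Uhrf1: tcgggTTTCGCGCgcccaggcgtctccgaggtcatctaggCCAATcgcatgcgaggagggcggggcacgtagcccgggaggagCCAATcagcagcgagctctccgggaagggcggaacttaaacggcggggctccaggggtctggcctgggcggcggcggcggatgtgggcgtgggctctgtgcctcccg
Pcna: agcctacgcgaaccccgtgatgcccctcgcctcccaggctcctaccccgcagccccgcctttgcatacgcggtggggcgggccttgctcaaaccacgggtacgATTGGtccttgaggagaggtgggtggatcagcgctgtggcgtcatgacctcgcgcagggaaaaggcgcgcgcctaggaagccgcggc
None of these 3 stretches holds a CHR. Mcm5 has 2 E2F matches that overlap on opposite strands, Uhrf1 has 1, and Pcna has 1 NF-Y box with neither of the other motifs. Uhrf1 has 2 annotated starts, and the stretch printed is that of the downstream start. The window of its other start held NF-Y boxes and no E2F site.

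Libraries held 20758170 to 40136578 expected counts, of which 24.2% to 43.8% came from mitochondrially encoded genes. Ventricular cardiomyocyte markers summed to 44740 to 55550 CPM (counts relative to library size, scaled by TMM) in every library, and of the 4 atrial markers Myl7 and Sln were below the filter while Myl4 and Nppa were tested. The p53 target Cdkn1a, which encodes p21, was at 5.02 to 11.05 CPM in NR, 25.3 to 69.8 in S-PRT and 39.5 to 59.5 in F-PRT. It rose in both comparisons (log2 fold change 2.52 ± 0.35 SE, edgeR adjusted p = 0.007 after S-PRT, and 2.67 ± 0.36, edgeR adjusted p = 0.0035 after F-PRT), and no irradiated library overlapped an NR library.

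Most of the 46 transcripts were rare in the unirradiated apex. Per length, as deposited TPM, the highest level was that of Pcna, the sliding clamp of DNA polymerases, at 15.8 ± 3.19 (SD, n = 4). Mcm7, a helicase subunit, followed at 4.15 ± 1.13 TPM and Rrm1, the large subunit of ribonucleotide reductase, at 3.84 ± 1.34 TPM, and these neighbours differed by less than their spread. The highest mitotic level was that of Cenpf, a large kinetochore protein, at 2.45 ± 1.16 TPM. Mki67, whose protein coats mitotic chromosomes and is the usual marker of dividing cells, was at 0.208 ± 0.114 TPM and Cdk1 at 0.815 ± 0.293 TPM. The lowest levels were those of Cenpe, a kinetochore motor, at 0.112 ± 0.092 TPM and of the checkpoint kinase Bub1 at 0.118 ± 0.06 TPM. Counts behind these values were small. The median mitotic gene had 11 to 77.5 rounded counts per library, the median replication gene 44.5 to 230, and the lowest value was 2 counts, for Cdc6, Aurkb and Birc5 in NR 2.

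After S-PRT, 5 of the 46 genes rose and 0 fell, by edgeR's quasi-likelihood test with Benjamini-Hochberg adjustment over all tested genes. Of all tested genes, 0.872% were called higher and 0.419% lower. The 5 were the mitotic genes Ccnb1, Cdk1 and Tpx2 and the replication genes Mcm5 and Uhrf1, 3 of 28 and 2 of 18. A log2 fold change above 0 was found for 45 of 46 genes, against 51.3% of all tested genes. The median was 1.31 for mitotic and 0.67 for replication genes, against 0.01 for all tested genes, and the difference between the sets was not tested. All 4 S-PRT libraries lay above all 4 NR libraries for 20 of 46 genes, 13 mitotic and 7 for replication, as they did for 7.34% of tested genes. In these bulk samples more dividing cells and more RNA per cell cannot be told apart.

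The S-PRT calls depended on the design of the test. NR and S-PRT libraries with the same number deviated together. So did numbers 1 with 2 and 3 with 4, and the labels do not say what a number marks. A fit of only NR and S-PRT without a block called 12 of the 46 genes, beside 3.96% of tested genes. With the replicate number as a block in such a fit, 27 of the 46 genes rose and 0 fell. They were 19 of 28 mitotic and 8 of 18 for replication, beside 6.42% of 14069 tested genes called higher. In the fit of all groups without the block, 0 of 46 passed when any NR library, S-PRT 3 or S-PRT 4 was left out. Those fits called 0.18% to 0.803% of tested genes. When any other library was left out 6 to 9 passed, beside 0.95% to 3.0% of tested genes. At an unadjusted p under 0.05, 35 of 46 genes passed, beside 18.3% of tested genes, and 28 of 46 did so after F-PRT, beside 36.1%.

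After F-PRT, 14 of 46 genes rose and 0 fell, 10 of 28 mitotic and 4 of 18 for replication. Across all tested genes, 10.8% were called higher and 8.67% lower. The mitotic genes were Birc5, Ccnb1, Cdc20, Cdca8, Cdk1, Cenpe, Kif11, Mki67, Plk1 and Tpx2, and the replication genes Ccne2, E2f1, Gins2 and Mcm5. Values above 0 were found for 44 of 46 genes (52.8% of tested genes), with medians of 1.15 for mitotic and 0.62 for replication genes against 0.03 for all tested genes. All 3 F-PRT libraries lay above all NR libraries for 19 of 46 genes, 11 mitotic and 8 for replication, beside 17.5% of tested genes. Left out, F-PRT 2 left 3 calls, F-PRT 4 left 4 and F-PRT 3 left 26. Those fits called 12%, 9.34% and 25.4% of tested genes in either direction. NR 1, NR 2, NR 3 and NR 4 left 6, 5, 11 and 7, beside 9.7%, 11.4%, 11.7% and 11.5% of tested genes. Without F-PRT 2, F-PRT 4 or NR 2 the 46 were therefore called no more often than all tested genes. Scaled by library size alone, or tested as log2(TPM + 1) or log2(TPM + 0.1) with limma, 0 of 46 genes passed in either comparison. Ccnb1, Cdk1, Mcm5 and Tpx2 were called after both kinds of irradiation, in comparisons that share the same 4 NR libraries.

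**Figure D2:**
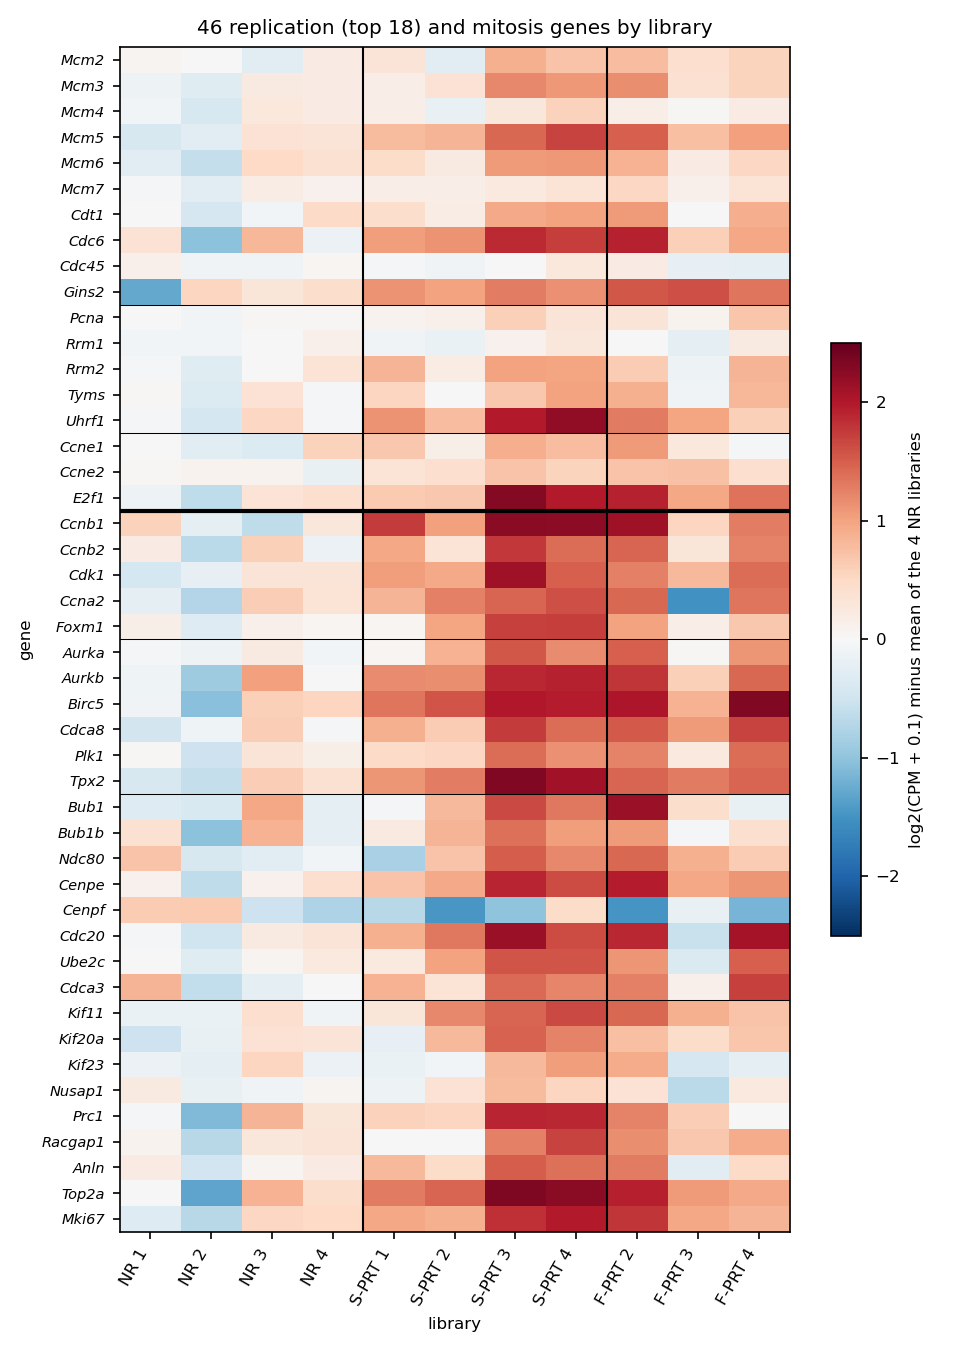
Level of each of the 46 genes in each of the 11 libraries, as log2(CPM + 0.1) minus the mean of the 4 NR libraries, with red above and blue below that mean. Genes are on the y axis with the 18 replication genes on top and libraries on the x axis. S-PRT 3, S-PRT 4 and F-PRT 2 are red for most genes, F-PRT 3 is paler, and Cenpf runs the other way.

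Among the 10 genes that license origins and build the helicase, 1 rose after S-PRT and 2 after F-PRT, with median log2 fold changes of 0.69 and 0.66. Mcm5 (ENSMUSG00000005410.7), a subunit of the Mcm2 to Mcm7 ring, was at 1.61, 1.76, 2.78 and 2.71 CPM in NR 1 to 4, at 3.77, 3.97, 6.03 and 7.17 CPM in S-PRT 1 to 4, and at 6.23, 3.67 and 4.49 CPM in F-PRT 2 to 4. Every irradiated library was above every NR library. Mcm5 rose by 1.24 ± 0.26 (log2, SE) after S-PRT (edgeR adjusted p = 0.039) and by 1.10 ± 0.28 after F-PRT (edgeR adjusted p = 0.019), the latter call being lost without NR 1, NR 2 or F-PRT 2. Gins2 (ENSMUSG00000031821.12), part of the GINS complex that activates the ring, was at 0.884, 3.40, 2.84 and 3.17 CPM in NR, 5.10, 4.75, 5.69 and 5.21 CPM in S-PRT, and 6.95, 7.28 and 5.98 CPM in F-PRT. NR 1 was low, and the 3 groups did not overlap. Gins2 rose after F-PRT by 1.36 ± 0.29 (edgeR adjusted p = 0.012), a call made in all 11 fits that left out 1 library. Its S-PRT value was 0.99 ± 0.28 (edgeR adjusted p = 0.096, and 0.036 with the replicate block). Expected counts of Gins2 were whole in no library, which means that RSEM split reads between it and other genes, and its values are uncertain.

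The sister subunit Mcm2 (ENSMUSG00000002870.9) was at 4.70, 4.45, 3.70 and 5.19 CPM in NR, 5.65, 3.73, 8.42 and 7.43 in S-PRT, and 7.67, 6.06 and 6.67 in F-PRT. S-PRT 2 lay within the NR range while the F-PRT libraries did not. Its log2 fold changes were 0.50 ± 0.21 (edgeR adjusted p = 0.23) and 0.59 ± 0.23 (edgeR adjusted p = 0.079). Mcm3, Mcm6, Mcm4 and Mcm7 had S-PRT values of 0.77, 0.69, 0.22 and 0.22 and F-PRT values of 0.73, 0.48, 0.11 and 0.32, with none past the test. With the block Mcm3 and Mcm6 passed after S-PRT (edgeR adjusted p = 0.012 and 0.0041). Subunits of the same ring therefore covered values from 0.22 to 1.24 after S-PRT. Cdt1 and Cdc6, which load the ring at origins, had 0.69 and 1.61 after S-PRT and 0.74 and 1.36 after F-PRT, Cdc6 on as few as 2 counts, and with the block Cdc6 passed after S-PRT (edgeR adjusted p = 0.03). Cdc45, which joins the ring when an origin fires, had 0.04 ± 0.17 after S-PRT and -0.07 ± 0.19 after F-PRT, and its libraries overlapped between groups (1.75 to 2.05 CPM in NR, 1.75 to 2.27 in S-PRT and 1.55 to 2.16 in F-PRT).

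Of the 5 genes for nucleotide supply, the clamp and maintenance methylation, 1 rose after S-PRT and 0 after F-PRT. Uhrf1 (ENSMUSG00000001228.15), which reads hemimethylated DNA behind the fork, was at 1.12, 0.822, 1.69 and 1.11 CPM in NR, 2.61, 2.04, 4.83 and 5.68 in S-PRT, and 2.96, 2.39 and 1.78 in F-PRT. All irradiated libraries were above all NR libraries, F-PRT 4 by little. Uhrf1 rose after S-PRT by 1.69 ± 0.33 (edgeR adjusted p = 0.033), and its F-PRT value was 0.98 ± 0.36 (edgeR adjusted p = 0.072). Pcna (ENSMUSG00000027342.15) was at 21.2, 20.3, 21.8 and 21.7 CPM in NR, 22.7, 23.3, 32.0 and 26.8 in S-PRT, and 26.6, 22.6 and 34.7 in F-PRT. The NR libraries were tightly grouped and lay below all irradiated libraries. Neither Pcna value passed, at 0.30 ± 0.13 (edgeR adjusted p = 0.25) and 0.40 ± 0.14 (edgeR adjusted p = 0.065), and its counts were whole in 2 of 11 libraries, so reads were shared with other genes.

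Ribonucleotide reductase showed unequal values for its 2 subunits. Rrm2 (ENSMUSG00000020649.12), the subunit made in S phase, was at 1.37, 1.12, 1.39 and 1.797 CPM in NR, 2.61, 1.60, 2.92 and 2.87 in S-PRT, and 2.24, 1.28 and 2.62 in F-PRT. S-PRT 2 and F-PRT 3 lay within the NR range. Its log2 fold changes were 0.81 ± 0.26 after S-PRT (edgeR adjusted p = 0.13, and 0.026 with the replicate block) and 0.54 ± 0.28 after F-PRT (edgeR adjusted p = 0.18). Rrm1, the large subunit, had 0.04 ± 0.12 and 0.01 ± 0.14, values whose sign turned under several settings, and the difference between the subunits was not tested. Tyms, which makes thymidylate, had 0.65 and 0.67, neither past the test.

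All 3 drivers of entry into S phase had values above 0, and 2 rose after F-PRT. E2f1 (ENSMUSG00000027490.18), the transcription factor of replication genes, was at 0.683, 0.448, 0.977 and 1.04 CPM in NR, 1.24, 1.26, 4.09 and 3.27 in S-PRT, and 3.11, 1.56 and 2.10 in F-PRT. No irradiated library overlapped NR, and S-PRT 3 and 4 were the highest. E2f1 rose after F-PRT by 1.49 ± 0.45 (edgeR adjusted p = 0.035), a call lost without any NR library, F-PRT 2 or F-PRT 4, and had 1.64 ± 0.41 after S-PRT (edgeR adjusted p = 0.075, and 0.005 with the replicate block). Ccne2 (ENSMUSG00000028212.17), a cyclin E gene, was at 1.97, 2.06, 2.07 and 1.69 CPM in NR, 2.48, 2.62, 3.26 and 2.91 in S-PRT, and 3.23, 3.28 and 2.65 in F-PRT. Again the irradiated libraries were all above NR. Ccne2 rose after F-PRT by 0.65 ± 0.17 (edgeR adjusted p = 0.021, lost without NR 4 or F-PRT 2), had 0.54 ± 0.15 after S-PRT (edgeR adjusted p = 0.10), and had whole counts in no library. Ccne1 (ENSMUSG00000002068.17), the other cyclin E gene, was at 0.964, 0.784, 0.740 and 1.49 CPM in NR, 1.58, 1.07, 1.88 and 1.71 in S-PRT, and 2.13, 1.17 and 0.920 in F-PRT. Its groups overlapped, with log2 fold changes of 0.64 ± 0.31 (edgeR adjusted p = 0.30) and 0.47 ± 0.34 (edgeR adjusted p = 0.34).

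**Figure D3:**
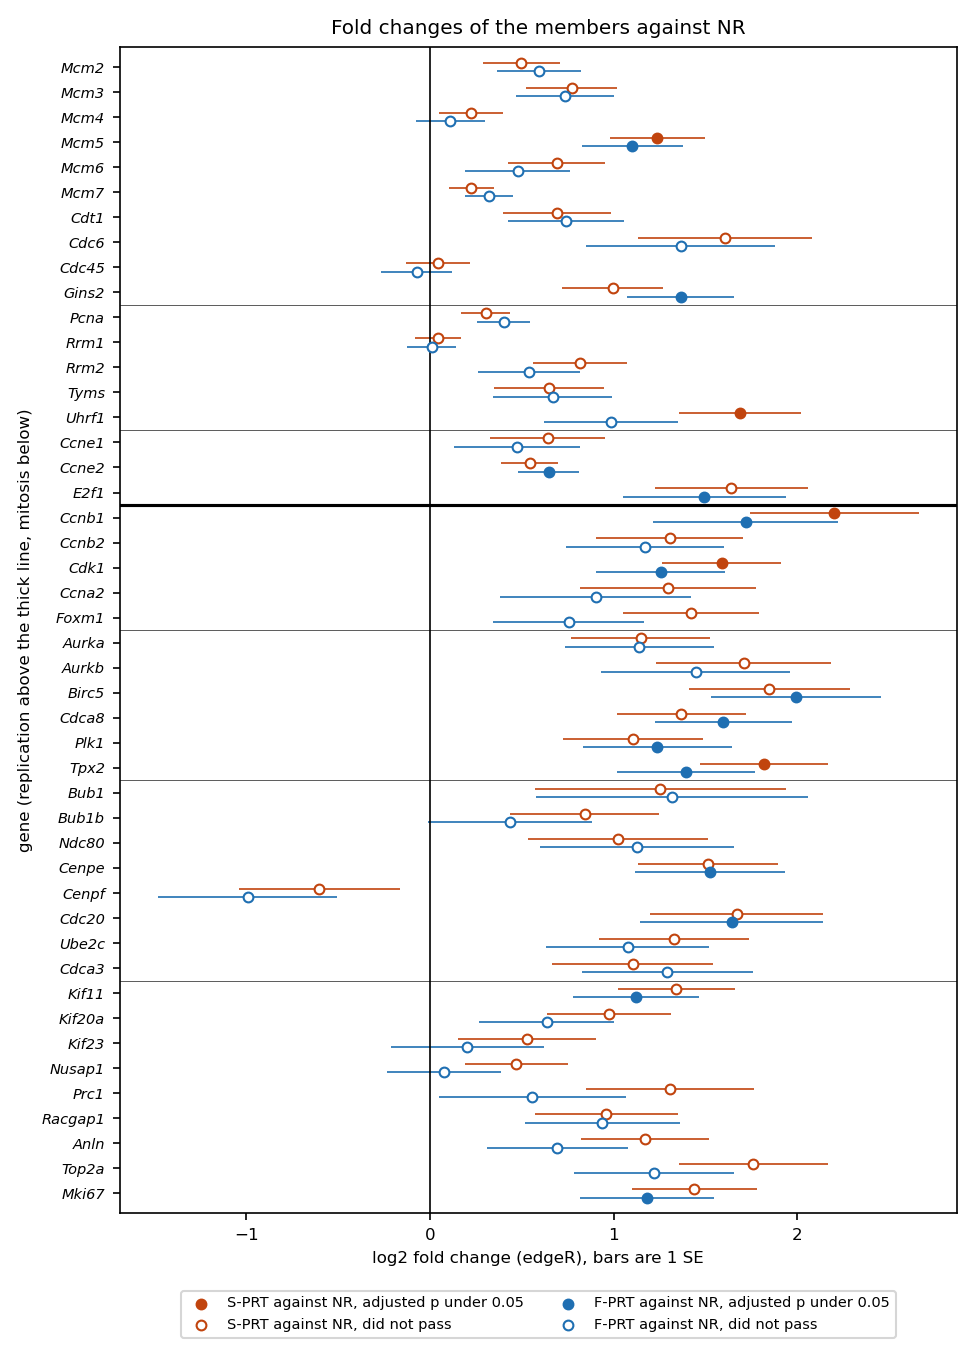
Log2 fold change of each of the 46 genes against NR, S-PRT in red and F-PRT in blue, with bars of 1 SE and filled points for an adjusted p under 0.05. Genes are on the y axis with replication genes above the thick line. Values lie right of 0 for 45 genes after S-PRT and 44 after F-PRT, and Cenpf is farthest to the left.

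Among the mitotic cyclins, Cdk1 and Foxm1, 2 of 5 genes rose in each comparison, with medians of 1.42 after S-PRT and 1.17 after F-PRT. Ccnb1 (ENSMUSG00000041431.17), the cyclin that takes Cdk1 into mitosis, was at 0.402, 0.187, 0.118 and 0.311 CPM in NR, 1.03, 0.582, 1.51 and 1.49 in S-PRT, and 1.37, 0.389 and 0.719 in F-PRT. The S-PRT libraries were all above NR, and F-PRT 3 lay within the NR range. Ccnb1 rose by 2.20 ± 0.46 after S-PRT (edgeR adjusted p = 0.039), the highest S-PRT value of the 46, and by 1.72 ± 0.50 after F-PRT (edgeR adjusted p = 0.033). The S-PRT call was also lost without S-PRT 1, and the F-PRT call without NR 2, NR 3, NR 4, F-PRT 2 or F-PRT 4. Cdk1 (ENSMUSG00000019942.14), the mitotic kinase, was at 0.362, 0.448, 0.681 and 0.688 CPM in NR, 1.20, 1.11, 2.64 and 1.68 in S-PRT, and 1.41, 1.0 and 1.55 in F-PRT. No irradiated library overlapped NR. Cdk1 rose by 1.59 ± 0.33 (edgeR adjusted p = 0.037) and by 1.26 ± 0.35 (edgeR adjusted p = 0.028), the latter call being lost without NR 1, NR 2, F-PRT 2 or F-PRT 4.

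Foxm1 (ENSMUSG00000001517.15), the transcription factor of the mitotic wave, was at 0.603, 0.411, 0.592 and 0.555 CPM in NR, 0.557, 1.16, 1.97 and 2.01 in S-PRT, and 1.18, 0.611 and 0.920 in F-PRT. S-PRT 1 was at the NR level, and F-PRT 3 was barely above it. Its values were 1.42 ± 0.37 after S-PRT (edgeR adjusted p = 0.082, and 0.037 with the replicate block) and 0.75 ± 0.41 after F-PRT (edgeR adjusted p = 0.21). Ccnb2 and Ccna2, the other mitotic cyclins of the list, had 1.30 and 1.30 after S-PRT and 1.17 and 0.90 after F-PRT. With the block both passed after S-PRT (edgeR adjusted p = 0.018 and 0.012), and Ccna2 had whole counts in no library.

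All 6 mitotic kinase and passenger complex genes had values above 1 on the log2 scale in both comparisons, and 1 rose after S-PRT and 4 after F-PRT. Tpx2 (ENSMUSG00000027469.17), which activates Aurora A on the spindle, was at 0.442, 0.374, 1.01 and 0.843 CPM in NR, 1.46, 1.65, 3.47 and 2.98 in S-PRT, and 1.86, 1.67 and 1.87 in F-PRT. Irradiated libraries were all above NR. Tpx2 rose by 1.82 ± 0.35 after S-PRT (edgeR adjusted p = 0.031) and by 1.39 ± 0.38 after F-PRT (edgeR adjusted p = 0.025, lost without NR 1, NR 2, F-PRT 2 or F-PRT 4). Birc5 (ENSMUSG00000017716.16), which encodes survivin of the chromosomal passenger complex, was at 0.241, 0.075, 0.444 and 0.422 CPM in NR, 0.814, 0.969, 1.35 and 1.30 in S-PRT, and 1.37, 0.556 and 1.70 in F-PRT. There was no overlap with NR, and F-PRT 3 came closest to it. Birc5 rose by 1.99 ± 0.46 after F-PRT (edgeR adjusted p = 0.015), the highest F-PRT value of the 46, and had 1.85 ± 0.44 after S-PRT (edgeR adjusted p = 0.061, and 0.012 with the block).

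Cdca8 (ENSMUSG00000028873.17), or borealin of the same complex, was at 0.241, 0.336, 0.622 and 0.355 CPM in NR, 0.771, 0.630, 1.48 and 1.14 in S-PRT, and 1.25, 0.889 and 1.41 in F-PRT. Each irradiated library exceeded NR, S-PRT 2 by the least. Cdca8 rose by 1.60 ± 0.37 after F-PRT (edgeR adjusted p = 0.016), which like the Birc5 call was lost only without F-PRT 4 among the left-out libraries, and had 1.37 ± 0.35 after S-PRT (edgeR adjusted p = 0.079, and 0.02 with the block). Plk1 (ENSMUSG00000030867.8), a kinase of mitotic entry and exit, was at 0.321, 0.187, 0.415 and 0.355 CPM in NR, 0.471, 0.485, 0.984 and 0.805 in S-PRT, and 0.873, 0.389 and 0.978 in F-PRT. F-PRT 3 lay inside the NR range. Plk1 rose by 1.24 ± 0.41 after F-PRT (edgeR adjusted p = 0.049), a call lost in 9 of the 11 left-out fits and made only without S-PRT 1 and without F-PRT 3. Its S-PRT value was 1.10 ± 0.38 (edgeR adjusted p = 0.15). Aurka and Aurkb, the Aurora kinases of the spindle pole and of the passenger complex, had 1.15 and 1.71 after S-PRT and 1.14 and 1.45 after F-PRT, with neither past the test. With the block both passed after S-PRT (edgeR adjusted p = 0.048 and 0.021).

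In the checkpoint, kinetochore and anaphase group, 0 of 8 genes rose after S-PRT and 2 after F-PRT. Cdc20 (ENSMUSG00000006398.16), which switches on the anaphase-promoting complex, was at 0.603, 0.411, 0.740 and 0.799 CPM in NR, 1.24, 1.70, 3.14 and 2.13 in S-PRT, and 2.58, 0.389 and 2.93 in F-PRT. F-PRT 3 was below every NR library while the other two were far above. Cdc20 rose by 1.64 ± 0.50 after F-PRT (edgeR adjusted p = 0.038, lost without any NR library, F-PRT 2 or F-PRT 4), and had 1.67 ± 0.47 after S-PRT (edgeR adjusted p = 0.10, and 0.0052 with the block). Cenpe (ENSMUSG00000045328.12) was at 0.442, 0.224, 0.444 and 0.577 CPM in NR, 0.728, 0.872, 1.78 and 1.47 in S-PRT, and 1.86, 0.889 and 0.978 in F-PRT. Its groups did not overlap with NR. Cenpe rose by 1.52 ± 0.41 after F-PRT (edgeR adjusted p = 0.024, lost without NR 1, NR 2, NR 3 or F-PRT 2), and had 1.51 ± 0.38 after S-PRT (edgeR adjusted p = 0.075, and 0.016 with the block). Bub1, Bub1b, Ndc80, Ube2c and Cdca3 had values from 0.84 to 1.33 after S-PRT and from 0.43 to 1.32 after F-PRT, with none past the test. With the block Ube2c, the conjugating enzyme of the anaphase-promoting complex, passed after S-PRT (edgeR adjusted p = 0.025).

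Cenpf stood apart from the other 27 mitotic genes in sign and in level. It was at 33.6, 33.8, 14.9 and 12.5 CPM in NR, 13.3, 7.75, 10.7 and 29.5 in S-PRT, and 7.71, 18.8 and 9.49 in F-PRT. NR 1, NR 2 and S-PRT 4 were high, and the groups overlapped. It had the only value below 0 after S-PRT (-0.60 ± 0.44, edgeR adjusted p = 0.49) and the lowest after F-PRT (-0.99 ± 0.49, edgeR adjusted p = 0.16). With no filter on low counts it was called lower after F-PRT (-1.003, edgeR adjusted p = 0.047). None of the other 27 exceeded 7.91 CPM in any library. Mitotic genes outside the 46 did, such as Pttg1 at 33.9 to 68.4 CPM. Of 66 mitotic genes tested outside the 46, 6 had values below 0 after S-PRT and 5 after F-PRT.

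Spindle, cytokinesis and chromosome genes numbered 9, of which 0 rose after S-PRT and 2 after F-PRT, with medians of 1.17 and 0.69. Mki67 (ENSMUSG00000031004.9) was at 1.53, 1.16, 2.81 and 2.75 CPM in NR, 3.85, 3.68, 7.07 and 7.91 in S-PRT, and 6.87, 3.89 and 3.54 in F-PRT. All irradiated libraries lay above NR. Mki67 rose by 1.18 ± 0.36 after F-PRT (edgeR adjusted p = 0.040), and had 1.44 ± 0.34 after S-PRT (edgeR adjusted p = 0.059, and 0.00049 with the block, the smallest of the 46). Kif11 (ENSMUSG00000012443.5), the motor that pushes spindle poles apart, was at 0.563, 0.560, 0.888 and 0.599 CPM in NR, 0.814, 1.60, 1.94 and 2.23 in S-PRT, and 1.90, 1.28 and 1.12 in F-PRT. NR 3 overlapped S-PRT 1, and no F-PRT library overlapped NR. Kif11 rose by 1.12 ± 0.34 after F-PRT (edgeR adjusted p = 0.039), and had 1.34 ± 0.32 after S-PRT (edgeR adjusted p = 0.061, and 0.018 with the block). Both F-PRT calls were lost without NR 1, NR 2, NR 4, S-PRT 3, F-PRT 2 or F-PRT 4.

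Top2a (ENSMUSG00000020914.18), the topoisomerase that untangles sister chromatids, was at 1.17, 0.411, 2.22 and 1.62 CPM in NR, 3.00, 3.39, 6.27 and 5.92 in S-PRT, and 4.78, 2.56 and 2.33 in F-PRT. The irradiated libraries were above NR, F-PRT 4 by the least. Top2a did not pass, with 1.76 ± 0.40 after S-PRT (edgeR adjusted p = 0.054, and 0.0022 with the block) and 1.22 ± 0.44 after F-PRT (edgeR adjusted p = 0.067). The other 6, Kif20a, Kif23, Nusap1, Prc1, Racgap1 and Anln, act at the spindle midzone and the cleavage furrow or on spindle microtubules. They had 0.47 (Nusap1) to 1.31 (Prc1) after S-PRT and 0.07 (Nusap1) to 0.94 (Racgap1) after F-PRT, with none past the test, and with the block Kif20a, Prc1 and Anln passed after S-PRT.

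**Figure D4:**
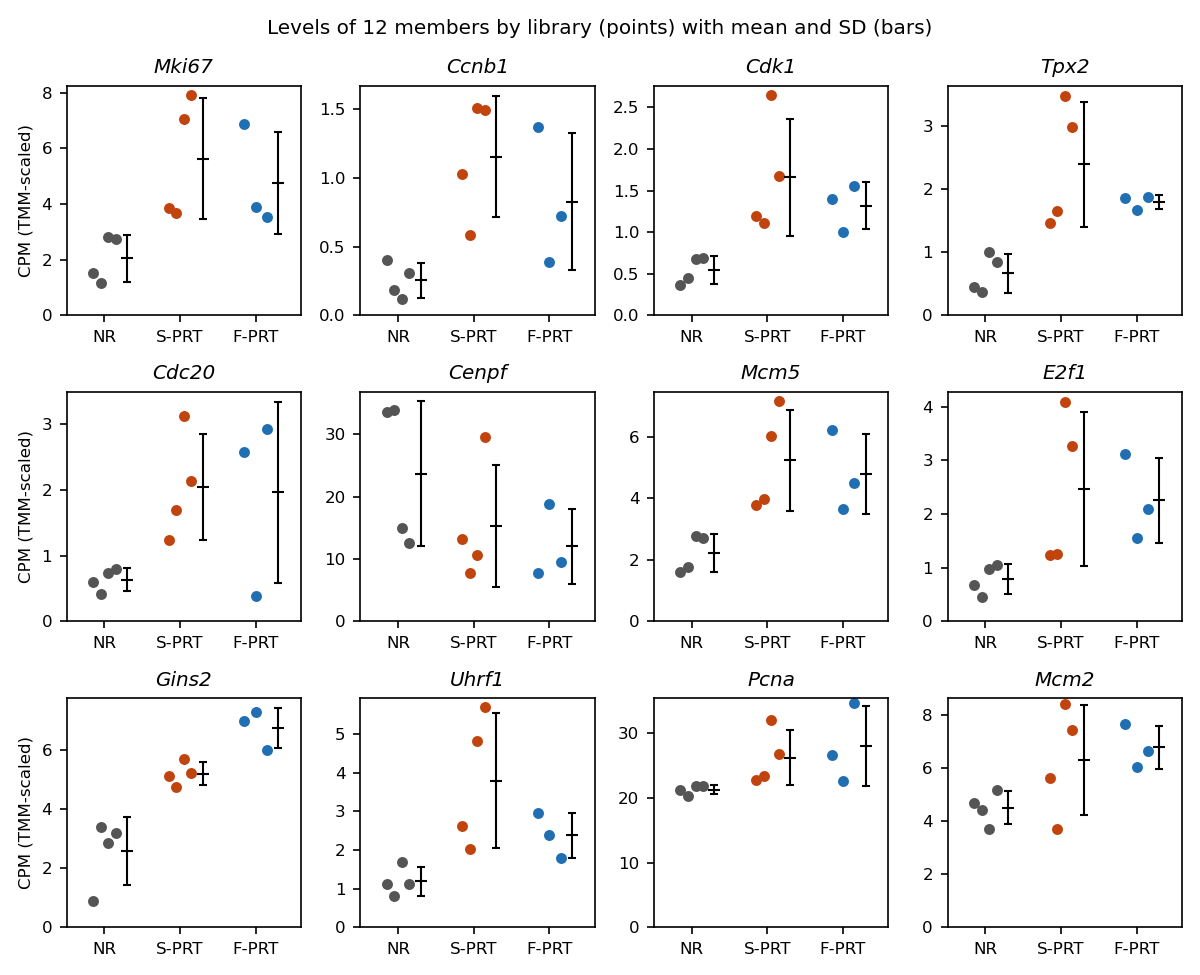
CPM of 12 of the 46 genes in each library (points), with the mean and SD of each group (bars), for NR (n = 4), S-PRT (n = 4) and F-PRT (n = 3). Each panel has its own y axis from 0. For Ccnb1 and Cdc20 a single F-PRT library sits at the NR level, and for Cenpf the NR libraries spread from 12.5 to 33.8 CPM.

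F-PRT and S-PRT, the same dose at different rates, were not told apart by any of the 46 genes. By edgeR, 0 of 14556 tested genes passed (0.0% higher and 0.0% lower), and at an unadjusted p under 0.05 there were 0 of the 46 and 15.9% of all genes. DESeq2 called 168 genes and 0 of the 46. The median log2 difference, F-PRT minus S-PRT, was -0.26 for mitotic and -0.07 for replication genes, and -0.14 for all 46 with 14 of 46 above 0 (50.4% of all tested genes). Without F-PRT 3 that last median was 0.02, against 0.01 for all tested genes. With library size alone it was 0.04 and with log2(TPM + 1) 0.02, scalings that moved the median of all tested genes to 0.19 and 0.13, so the 46 remained below it there. Differences ran from -0.75 ± 0.49 for Prc1 to 0.37 ± 0.28 for Gins2, the only gene with every F-PRT library above every S-PRT library (5.45% of tested genes). The next lowest were Uhrf1 at -0.70 ± 0.35 (edgeR adjusted p = 0.34) and Foxm1 at -0.67 ± 0.39 (edgeR adjusted p = 0.42). Counts of Prc1 were whole in only 2 libraries and those of Gins2 in none, so both extremes are uncertain. The 5 mitotic cyclin, Cdk1 and Foxm1 genes and the 9 spindle and cytokinesis genes were all below 0, while Birc5, Cdca8 and Plk1 were above 0. SEs of these differences had a median of 0.37, and the lowest edgeR adjusted p of the 46 was 0.34. Even the largest of these differences were therefore not resolved by these libraries.

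The medians of the 2 sets varied in a similar order among libraries of the same group, though not every gene followed them. The median deviation of the mitotic genes from the NR mean, in log2 CPM, was -0.03, -0.51, 0.36 and 0.19 in NR 1 to 4, 0.68, 0.91, 1.70 and 1.59 in S-PRT 1 to 4, and 1.48, 0.49 and 1.05 in F-PRT 2 to 4. For replication genes it was -0.03, -0.29, 0.21 and 0.21 in NR, 0.46, 0.19, 0.95 and 1.01 in S-PRT, and 0.90, 0.23 and 0.59 in F-PRT. S-PRT 3 and 4 thus stood above S-PRT 1 and 2, and F-PRT 3 below its group, in both sets. Total expected counts were 28097280, 27780213, 31186064 and 37372372 in NR 1 to 4 and 27411007, 23655699, 33372893 and 40136578 in S-PRT 1 to 4. In F-PRT 2 to 4 they were 23610573, 20758170 and 28571465. The part of depth in this order was not tested. S-PRT 3 or S-PRT 4 was the highest S-PRT library for all 46 genes, for 29 and 17. F-PRT 3 was the lowest of its group for 34 genes and NR 2 for 34. F-PRT 3 was the highest of its group for 3, Cenpf, Gins2 and Ccne2. These ranks were not counted over all tested genes, so they do not show a trait of the 46. F-PRT 3 and NR 2 also deviated together over 11107 genes (r = 0.51). The number of genes above the highest NR library was 26, 27, 43 and 45 in S-PRT 1 to 4 and 43, 20 and 37 in F-PRT 2 to 4. The same held for 29.4%, 29.4%, 31.6% and 27.4% of all tested genes in S-PRT 1 to 4 and for 37.9%, 30.4% and 40.3% in F-PRT 2 to 4.

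Markers of monocytes and macrophages varied in a like order. All 14 were tested, none was at 0 in every library, and their summed level was 193, 163, 256 and 271 CPM in NR, 275, 270, 546 and 411 in S-PRT, and 421, 226 and 347 in F-PRT. S-PRT 3, S-PRT 4 and F-PRT 2 were again the highest, and F-PRT 3 lay within the NR range. After S-PRT 1 of the 14 rose, Ccr2 (2.33 ± 0.25, edgeR adjusted p = 0.0032), the receptor of recruited monocytes, and all 14 had values above 0. After F-PRT 3 rose, Ccr2 (2.18 ± 0.27, edgeR adjusted p = 0.0024) and the complement genes C1qa (0.91 ± 0.29, edgeR adjusted p = 0.045) and C1qb (0.93 ± 0.30, edgeR adjusted p = 0.046). The share of mitochondrially encoded counts was 43.8%, 38.8%, 34.9% and 30.6% in NR, 43.5%, 42.7%, 41.5% and 37.1% in S-PRT, and 31.6%, 42.3% and 24.2% in F-PRT. The part of library composition in the cell cycle values was not tested.

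Some of the other marker lists shared that order and some did not. The 5 neutrophil markers, 3 of them tested, summed to 1.77 to 3.13 CPM in NR, 2.96 to 10.1 in S-PRT and 2.45 to 10.3 in F-PRT, with F-PRT 3 the highest. T and NK markers (4 of 10 tested) summed to 2.05, 1.42, 3.38 and 2.75 CPM in NR, 1.16, 2.38, 3.72 and 7.51 in S-PRT, and 3.61, 2.06 and 2.62 in F-PRT. S-PRT 4, S-PRT 3 and F-PRT 2 were the highest here too. Atrial markers (2 of 4 tested) summed to 48.5 to 80.0 CPM in NR, 78.9, 25.2, 184 and 145 in S-PRT, and 198, 137 and 97.5 in F-PRT, again highest in F-PRT 2, S-PRT 3 and S-PRT 4. B cell markers (6 of 6 tested) summed to at most 12.8 CPM in any library. Of 9 endothelial markers 0 rose and 1 fell after S-PRT, Tek (-0.97 ± 0.17, edgeR adjusted p = 0.027). After F-PRT Egfl7 rose (0.73 ± 0.16, edgeR adjusted p = 0.013) and Tek fell (-1.19 ± 0.19, edgeR adjusted p = 0.0054). Of 7 fibroblast markers 0 changed after S-PRT and Pdgfra fell after F-PRT (-1.34 ± 0.25, edgeR adjusted p = 0.0086). No pericyte, smooth muscle or erythroid marker passed in either comparison. Of the ventricular markers, Ryr2 fell (-0.86 ± 0.22, edgeR adjusted p = 0.022) and Myl3 rose (0.47 ± 0.14, edgeR adjusted p = 0.036) after F-PRT. Of the atrial markers, Myl4 had 0.34 ± 0.24 after S-PRT and rose after F-PRT (1.01 ± 0.25, edgeR adjusted p = 0.019), and Nppa had 0.76 ± 0.44 and 1.17 ± 0.47, neither past the test. The part of any of these cells in the cell cycle values was not tested.

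**Figure D5:**
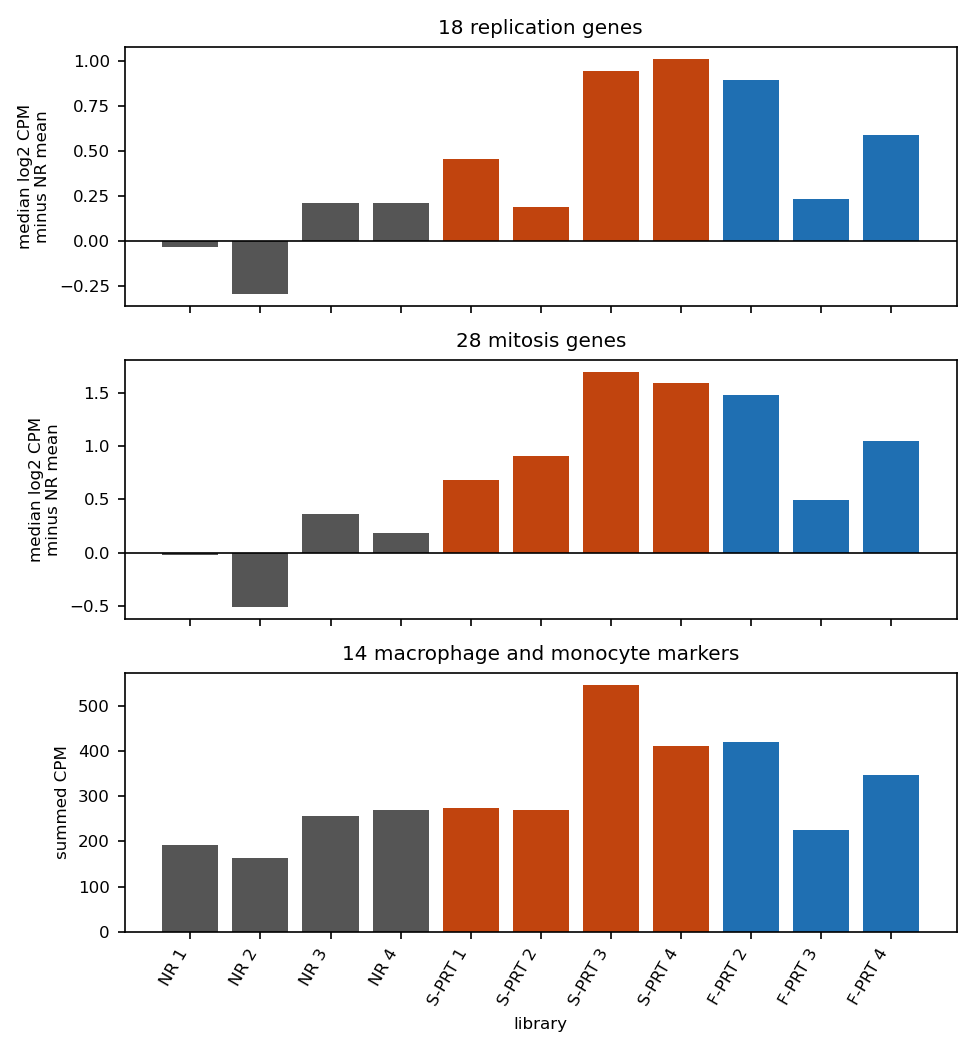
Median log2 CPM minus the NR mean of the 18 replication genes (top) and 28 mitotic genes (middle), and summed CPM of 14 macrophage and monocyte markers (bottom), in each of the 11 libraries on the x axis. S-PRT 3, S-PRT 4 and F-PRT 2 hold the 3 highest bars in the mitotic and marker panels, and F-PRT 3 the lowest irradiated bar in both.

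Genes of the same pathways outside the 46 were counted in the same way. Of 66 other mitotic genes tested, 7 rose and 0 fell after S-PRT and 19 rose and 0 fell after F-PRT, with medians of 1.11 and 0.96. The shares called higher were 10.6% and 28.8%, beside 0.872% and 10.8% of all tested genes. Pbk, a mitotic kinase, rose by 2.63 ± 0.38 after S-PRT (edgeR adjusted p = 0.0086) and by 2.07 ± 0.41 after F-PRT (edgeR adjusted p = 0.0098), in every fit that left out a library. Its NR values were 0.089 to 0.362 CPM against 0.824 to 1.397 in S-PRT and 0.667 to 0.892 in F-PRT. Ckap2, a spindle protein, rose by 2.68 ± 0.42 and 2.19 ± 0.45, and Gtse1, a microtubule protein that also restrains p53, by 2.33 ± 0.43 and 2.36 ± 0.45. Spc25, of the Ndc80 complex, rose by 1.70 ± 0.30 and 1.83 ± 0.32. The F-PRT calls of these 3 were made in all 11 fits that left out a library. After S-PRT Ckap2 was lost without NR 1, NR 3 or S-PRT 3, Spc25 without NR 1, NR 2, NR 4, S-PRT 3 or S-PRT 4, and Gtse1 without any NR library, S-PRT 3 or S-PRT 4. Cks2, which binds Cdk1, and Cenpm, a centromere protein, rose after S-PRT (1.96 ± 0.34 and 1.76 ± 0.36) and after F-PRT (1.70 ± 0.36 and 1.71 ± 0.39), the S-PRT calls being lost without 4 and 7 of the 11 libraries, NR 1, NR 3, NR 4 and S-PRT 3 for both. After F-PRT, Stmn1, which destabilises microtubules (0.76 ± 0.15), and the spindle motor Kifc1 (2.00 ± 0.42, counts whole in no library) also rose.

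Of 46 other replication genes tested, 1 rose after S-PRT and 10 after F-PRT, 0 fell, and the medians were lower, at 0.21 and 0.37. The shares called higher were 2.17% and 21.7%, beside 0.872% and 10.8% of all tested genes. Mcm10, which helps start the helicase, rose by 1.89 ± 0.40 after S-PRT (edgeR adjusted p = 0.039, lost without any NR library, S-PRT 3 or S-PRT 4) and by 1.66 ± 0.43 after F-PRT (edgeR adjusted p = 0.022, lost without NR 1, NR 2, NR 3 or F-PRT 2). After F-PRT Clspn, a fork protection protein, rose by 1.92 ± 0.48 (lost without NR 1, NR 3 or F-PRT 2). Smaller increases after F-PRT were those of Orc6 of the origin recognition complex (0.58 ± 0.18), the clamp loader genes Rfc2 (0.47 ± 0.10) and Rfc5 (0.63 ± 0.20) and the single-strand binding protein gene Rpa2 (0.36 ± 0.11). The Rfc2 call was made in all 11 left-out fits, and those of Orc6, Rfc5 and Rpa2 were lost in 6, 8 and 6 of them. Counts of Rfc2 and Rfc5 were whole in no library.

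Upstream of both waves, cyclin D1 rose and an inhibitor rose beside it. Ccnd1 was at 35.2 to 44.8 CPM in NR, 84.8 to 155 in S-PRT and 94.2 to 157 in F-PRT, with no overlap. Its log2 fold changes were 1.51 ± 0.21 (edgeR adjusted p = 0.007) and 1.52 ± 0.22 (edgeR adjusted p = 0.0046), called in every fit that left out a library, with whole counts in no library. Of the 6 G1 cyclin and kinase genes, Ccnd3 (0.38 ± 0.09) and Cdk4 (0.38 ± 0.11) also rose after F-PRT, the first lost without NR 1, NR 2 or F-PRT 4 and the second without any NR library, S-PRT 3 or F-PRT 4. Among 6 tested Cdk inhibitor genes, Cdkn1a rose in both comparisons as given above, and after F-PRT Cdkn2d rose (0.43 ± 0.09) and Cdkn1b fell (-0.36 ± 0.09), the latter lost without NR 1, NR 4 or F-PRT 2. Of 17 tested Rb, E2F and DREAM genes, 0 passed after S-PRT, with E2f2 at 1.39 ± 0.38 (edgeR adjusted p = 0.093) and Mybl2, which encodes B-Myb, at 1.81 ± 0.58 (edgeR adjusted p = 0.13). After F-PRT 1 fell, Rbl2 (-0.48 ± 0.11, edgeR adjusted p = 0.015), the pocket protein of the repressive DREAM complex, with whole counts in no library.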

How the data were processed

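RNA-seq libraries were made from high-integrity total RNA with a directional kit after poly(A) selection, per the labels. The submitters' processing notes name FastQC, cutadapt, STAR, RSEM and edgeR without versions, and 2 builds, GRCm39 and mm10. Strand settings for counting are not given in the sources used here. The deposited tables hold expected counts and TPM per gene and library, per the file headers. Expected counts are RSEM estimates and need not be whole, because reads that fit several genes are divided among them. The TPM deposited by the authors are scaled by effective length and to the same sum in each library.

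Here expected counts were rounded. The filterByExpr filter (minimum count 10 and total 15) kept 14556 genes, and TMM scaling and a quasi-likelihood fit of all 11 libraries followed in edgeR 4.0.16 under R 4.3.3, with 8 residual degrees of freedom. A gene was called at a Benjamini-Hochberg adjusted p under 0.05 over all tested genes. SEs come from the log2 fold change and the F statistic. A name table matched 52081 of the 55414 identifiers. Expected counts were whole to within 1e-09 for 36 of the 46 genes in every library, for 7 in some and for 3 in none. Of the 7, Kif20a, Prc1, Pcna and Mcm7 had whole counts in 1, 2, 2 and 3 libraries. A simulation on 14556 genes with 200 changed recovered 64.2% of those changed by a fold of 2 in the S-PRT comparison, 67.2% in the F-PRT comparison and 61.2% between the irradiated groups. Calls among its unchanged genes numbered 5, 9 and 6. Its changed genes were drawn at random from all tested genes and varied independently. These shares therefore do not measure recovery of the 46 genes, many of which varied together. No libraries of a group were alike within counting noise.

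The 46 genes, the other lists and the motifs were chosen with earlier results of these data known. Values in every library are given for each of the 46 called in a comparison and for 12 that are always named, 21 in all. Cenpf was given in full after its values were seen. From each further list up to 6 called genes with the smallest p are named, or up to 2 if none was called. Same-numbered NR and S-PRT libraries deviated together over 11107 genes (r = 0.27, 0.28, 0.36 and 0.18 for numbers 1 to 4, all over 0.1), which is why the replicate block is given for that comparison. Correlations were also positive between numbers 1 and 2 (0.44 and 0.17) and between 3 and 4 (0.35 and 0.37), and the labels do not say what a number marks. S-PRT 1 deviated more with NR 2 than with NR 1, and S-PRT 4 more with NR 3 than with NR 4. Alternatives used limma 3.58.1 and DESeq2 1.42.0.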

Additional observations from a re-analysis of the deposited data

Results flagged for a closer look

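Of 92 sets of 4 libraries checked for a library far from the others, 4 had one. That share is no higher than the 1 in 20 that chance gives. All 4 were in NR. Gins2 was at 0.884 CPM in NR 1 against 2.84 to 3.40 in the other NR libraries. NR 3 was high for 3 mitotic genes, with Bub1 at 0.444 CPM against 0.112 to 0.133, Kif11 at 0.888 against 0.56 to 0.599 and Kif23 at 1.60 against 0.897 to 0.964. NR 3 was the highest NR library for 26 of the 46 genes, a rank that was not counted over all tested genes. Groups of 3 libraries were not checked.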

How the results depend on the processing

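Genes called for S-PRT, F-PRT and their difference were 188, 2841 and 0, and called genes among the 46 were 5, 14 and 0. Leaving out a library gave 26 to 444, 1382 to 3784 and 0 to 103 genes, and 0 to 9, 3 to 26 and 0 of the 46. With library size alone there were 14 and 135 genes with 0 and 0 of the 46, with log2(TPM + 1) 2, 71 and 9 genes with 0 and 0, and with log2(TPM + 0.1) 3, 74 and 4 genes with 0 and 0. DESeq2 size factors gave 3 genes between the irradiated groups, as did TMM without mitochondrially encoded genes and a filter of at least 1 CPM in at least 3 libraries. The DESeq2 Wald test called 697 genes for S-PRT, 168 for the difference and 20 of the 46 for S-PRT. No filter gave 605 and 71 genes and 20 of the 46 for S-PRT. Fits of only the groups compared gave 557 genes and 12 of the 46 for S-PRT. Removing a trend on transcript length gave 107 and 324 genes, and 7 of the 46 after F-PRT. The replicate block called 1371 and 29 genes for S-PRT and F-PRT and 27 and 0 of the 46, and with the length trend also removed 956 and 55 genes and 26 and 1 of the 46. Same-numbered F-PRT libraries had r of -0.15, -0.45 and 0.23 with NR and -0.36, -0.39 and -0.16 with S-PRT. Only that of F-PRT 4 with NR 4 was over 0.1. The block fit of F-PRT against NR held only the numbers 2 to 4, so NR 1 was left out. Whether the block suits either comparison was not tested.

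Some values changed sign. Rrm1 after F-PRT was -0.019 with DESeq2 size factors, -0.018 without mitochondrially encoded genes, -0.017 with the Wald test, -0.003 with no filter, -0.036 with at least 1 CPM, -0.006 in the fit of 2 groups and -0.041 with the replicate block. It was -0.01, -0.014, -0.045 and -0.112 without NR 1, NR 2, S-PRT 3 and F-PRT 4, and up to 0.119 without another library. After S-PRT Rrm1 was -0.094 with library size, -0.195 and -0.241 on the TPM scales and -0.048 to 0.114 when a library was left out (lowest without S-PRT 4). On the TPM scales Mcm4 was -0.006 and -0.012 and Mcm7 -0.147 and -0.183 after S-PRT, and between irradiated groups Ccnb1 was 0.013 and 0.01 and Prc1 0.017 and 0.077, from -0.48 and -0.75, where the median of all tested genes was 0.126 and 0.187. Mcm4 after F-PRT was -0.005 without NR 2 and up to 0.197 without another library. The S-PRT median of all tested genes was -0.135 with library size and -0.132 and -0.188 on the TPM scales, so values there are read against it. The cause of these changes was not tested. In NR 2, the library with the lowest mitotic median, the median count was 11 for mitotic genes and 51 for replication genes. The part of count level in the calls was not tested.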
